A study of Homo sapiens with 3 samples.

Results

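The genes described here are 43 that build the kinetochore or run the spindle checkpoint, out of 19699 genes with a named probe on the arrays. They were chosen by name, from the textbook membership of these protein complexes, with earlier results of these data known. Every array probe whose transcript accession matched one of the 43 symbols was taken, 55 probes in all. PANC-1, a human cell line derived from a carcinoma of the pancreatic duct, was profiled on 3 Agilent 1-colour arrays of total RNA. One culture was left without an inhibitor (control), another was given cantharidin (CAN) and another okadaic acid (OA), both labelled 20 µM and both for 24 h. The treatment text can also be read as giving that dose for CAN alone, so the dose of OA is uncertain. CAN is a terpenoid from blister beetles and OA a polyketide from marine dinoflagellates, and both inhibit protein phosphatase 2A (PP2A), so both treated arrays carry an inhibitor of the same phosphatase and the control carries none. All cells are the same established line, with no transgene named in the labels. Each group is 1 array, so no spread between cultures was measured, no test could be run, and every difference below is a description of these 3 arrays. Both treated arrays were set against the same control array.

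The kinetochore is the protein assembly that forms on centromeric chromatin and ties each chromosome to spindle microtubules. An inner layer, built around the centromeric histone CENPA, stays on the centromere for most of the cell cycle, while the outer layer, which grips microtubules, is assembled for mitosis. Kinetochores that have not been captured by microtubules recruit the checkpoint proteins MAD1L1, MAD2L1, BUB1 and BUB1B, which hold back the anaphase-promoting complex until all chromosomes are attached. Many of these genes are transcribed mainly from late S phase to mitosis, through the DREAM, B-MYB and FOXM1 complexes acting at a promoter element called CHR. Another promoter element, the CCAAT box, was searched beside it.

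The promoters of 6 of the genes are printed because they carry the contrast of the results that follow: of the genes with a promoter entry, AURKB, BUB1, ZWINT and MAD2L1 had the largest fall when each gene is taken at the smaller of its falls under the 2 agents, and CENPT and CENPN changed least. The sequences are from RefSeq (GRCh38.p14), on the strand of the gene, and run from 250 bases before the annotated start site through the first 30 transcribed bases. The start site counts as +1. Capitals mark a CHR (TTTGAA or TTCGAA) or a CCAAT box, either of them on either strand. The AURKB window (chr17:8210196-8210475, minus strand) holds a CCAAT box at -153 and no CHR. An ATG lies at +2 of this window, and AURKB has another listed start, also without a CHR. Whether the printed window is its main promoter was not tested. The BUB1 window (chr2:110678034-110678313, minus strand) holds CCAAT boxes at -79 and -54 and a CHR at +2. The ZWINT window (chr10:56361230-56361509, minus strand) holds CCAAT boxes at -116 and -66 and a CHR at -31. The MAD2L1 window (chr4:120066819-120067098, minus strand) holds a CCAAT box at -229 and a CHR at +25. The CENPT window (chr16:67847664-67847943, minus strand) holds neither. CENPT was dim, at 53.9 in control. The lowest signal well above background was 21.9 under CAN and 58.0 under OA, so a large fall could not have been measured. The CENPN window (chr16:81006964-81007243, plus strand) holds a CCAAT box at -6 and a CHR at +4.
AURKB: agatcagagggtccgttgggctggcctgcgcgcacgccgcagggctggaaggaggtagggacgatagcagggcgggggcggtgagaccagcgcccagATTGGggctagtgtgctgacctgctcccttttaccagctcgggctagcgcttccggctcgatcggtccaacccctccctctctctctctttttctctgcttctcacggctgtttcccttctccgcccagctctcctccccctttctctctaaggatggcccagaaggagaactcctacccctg
BUB1: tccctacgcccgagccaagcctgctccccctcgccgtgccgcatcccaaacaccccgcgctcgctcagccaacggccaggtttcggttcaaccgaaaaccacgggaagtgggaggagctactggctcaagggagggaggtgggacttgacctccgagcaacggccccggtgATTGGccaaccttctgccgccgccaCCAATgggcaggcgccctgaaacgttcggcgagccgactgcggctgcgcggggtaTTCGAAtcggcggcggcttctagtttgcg
ZWINT: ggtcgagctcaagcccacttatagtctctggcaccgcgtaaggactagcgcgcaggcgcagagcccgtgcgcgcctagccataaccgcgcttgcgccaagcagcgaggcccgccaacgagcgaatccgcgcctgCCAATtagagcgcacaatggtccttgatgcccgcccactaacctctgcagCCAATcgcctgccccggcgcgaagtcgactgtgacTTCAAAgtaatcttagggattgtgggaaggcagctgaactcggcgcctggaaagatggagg
MAD2L1: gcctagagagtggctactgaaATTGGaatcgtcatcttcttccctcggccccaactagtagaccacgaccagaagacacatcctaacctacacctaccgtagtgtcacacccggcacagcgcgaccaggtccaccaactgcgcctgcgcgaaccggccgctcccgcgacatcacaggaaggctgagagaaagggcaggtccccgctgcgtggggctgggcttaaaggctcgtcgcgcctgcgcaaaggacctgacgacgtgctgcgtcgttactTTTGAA
CENPT: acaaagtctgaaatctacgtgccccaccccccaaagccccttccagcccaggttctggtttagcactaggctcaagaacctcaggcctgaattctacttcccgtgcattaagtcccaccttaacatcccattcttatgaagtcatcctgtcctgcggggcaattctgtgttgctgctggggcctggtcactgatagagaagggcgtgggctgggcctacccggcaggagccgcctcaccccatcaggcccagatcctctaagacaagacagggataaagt
CENPN: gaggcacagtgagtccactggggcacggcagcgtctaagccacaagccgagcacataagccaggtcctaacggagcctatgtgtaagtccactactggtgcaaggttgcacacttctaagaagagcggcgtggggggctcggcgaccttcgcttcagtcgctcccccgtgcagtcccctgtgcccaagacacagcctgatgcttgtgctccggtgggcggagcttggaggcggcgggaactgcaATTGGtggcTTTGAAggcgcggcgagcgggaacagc

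Signals are processed probe intensities in the scanner's arbitrary units, as deposited. Before comparison each array was divided by its 75th percentile, which was 784 for control, 713 for CAN and 936 for OA, and folds and log2 differences refer to these scaled signals. Between 23071 and 25103 probes per array were well above background, and no probe was saturated. For probes printed in 10 spots, the SD between spots had a median of 0.06 to 0.09 (log2) where the signal was well above background, and of 0.28 to 0.31 below an intensity of 100. Of the 43 genes, 42 were well above background in control, 38 under CAN and 38 under OA, and 36 on all 3 arrays. Where 1 array was not well above background, the fold is a bound, written "at least", against the higher of the probe's own signal and the lowest signal that was well above background there. Keratins KRT7, KRT8, KRT18 and KRT19 and vimentin were well above background on every array. Of 17 markers of leukocytes, endothelium, fibroblasts, acini and islets with a probe, 11, 12 and 11 were well above background on the control, CAN and OA arrays, among them all 4 leukocyte genes. LUM and COL1A2 (fibroblast), CLDN5 (endothelium) and CPA1 (acinar) were not well above background on any array, nor was PECAM1 (endothelium) by its brightest probe, though another PECAM1 probe was in control, at 45.0. The fibroblast marker DCN was well above background on all 3 arrays, and PDGFRB under CAN alone, where it read 375 against 17.5 in control, at least 11.8-fold higher. Summed over the 17 and scaled, the marker signal was 14.7 times the array's 75th percentile in control, 15.3 under CAN and 23.6 under OA. Without the macrophage gene CD68 the sums were 10.9, 9.79 and 10.0. The part of these markers in the results was not tested.

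Most of the set was lower under CAN. At 1.5-fold, 36 of the 43 genes were lower than in control (83.7%), against 34.1% of the 16644 genes compared, and 4 were higher (MIS12, ZW10, MAD1L1 and CENPL), against 27.5%. At 4-fold, 25 were lower (58.1%), against 8.57% of all genes, and 23 where dim signals are held at their bound. The median difference was -2.62 on the log2 scale, a 6.15-fold fall, or -2.23 with dim signals at the floor, while the median of all genes was -0.16. CENPN and CENPT stayed within 1.5-fold, and no size can be given for KNL1, which was not well above background in control. With normexp background correction the median was -1.67. That setting starts from the median spot signal and adds an offset of 50, which shrinks the folds of dim signals.

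The set was also mostly lower under OA. At 1.5-fold, 31 of the 42 compared genes were lower (73.8%), against 28.8% of the 16166 genes compared, and 30 with dim signals at their bound. Only MIS12 and ZW10 were higher, against 28.1% of all genes. At 4-fold, 15 genes were lower (35.7%), against 6.69% of all genes, and 14 at their bound. The median was -1.45, a 2.74-fold fall, or -1.26 with dim signals at the floor, while all genes had a median of 0.01. With normexp background correction it was -1.14. In RNA from a whole culture, fewer cells that express a gene and less RNA of it per cell cannot be told apart.

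**Figure D1:**
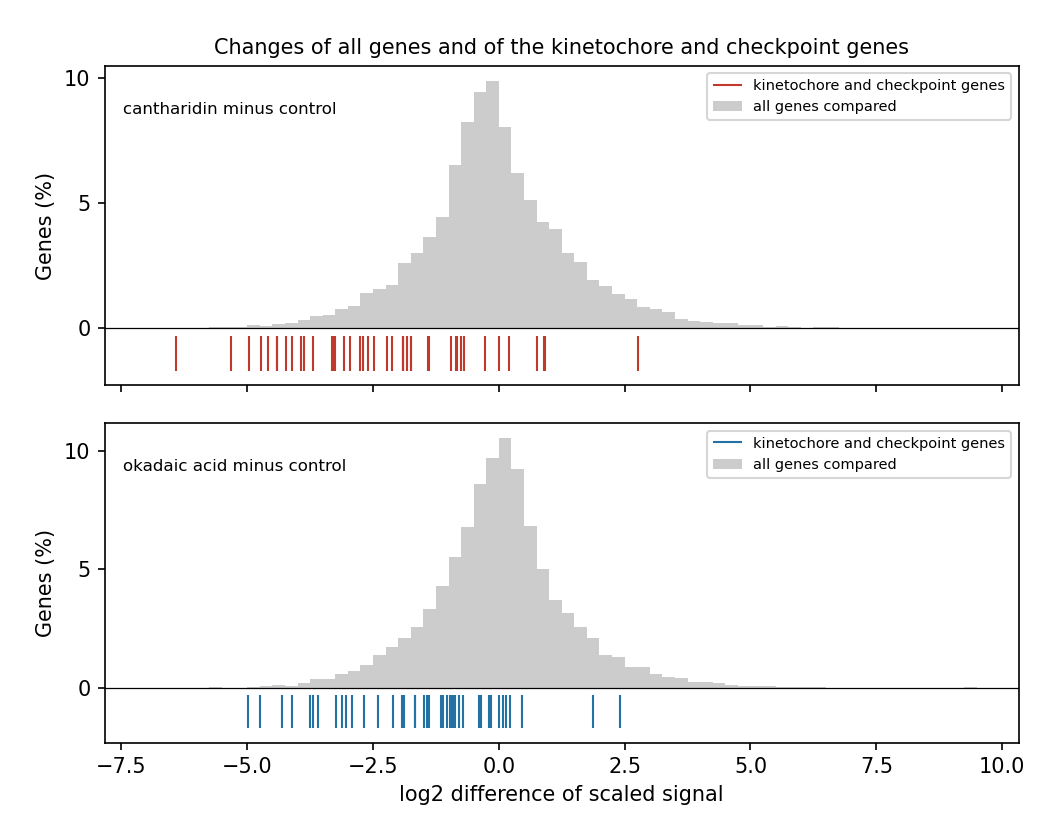
The grey bars give the share of all compared genes (%) in each step of log2 difference against control, CAN above and OA below. The coloured ticks are the kinetochore and checkpoint genes, with dim signals at their bound, and they lie mostly left of the peak of all genes, at medians of -2.62 under CAN and -1.45 under OA before bounds are applied.

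The general proliferation genes moved unevenly on the same arrays. TOP2A, the topoisomerase that untangles chromosomes before mitosis, read 1630 in control, 29.9 under CAN and 125 under OA, 49.6-fold and 15.6-fold lower. PCNA, the sliding clamp of DNA replication, read 16393, 4595 and 29030, which was 3.24-fold lower under CAN and 1.48-fold higher under OA. TOP2A was thus low on both treated arrays and PCNA on the CAN array alone. MCM2, a subunit of the replicative helicase, read 3743, 1328 and 1089, 2.56-fold and 4.10-fold lower. MKI67, the Ki-67 antigen, read 587, 381 and 498 by its brightest probe, 1.40-fold and 1.41-fold lower. A dimmer probe was at least 3.78-fold and 1.87-fold lower. Another dim MKI67 probe, at 38.9 in control, was at least 1.62-fold lower with CAN, and no fold can be given for OA. The part of these genes' shift in the kinetochore results was not tested.

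**Figure D2:**
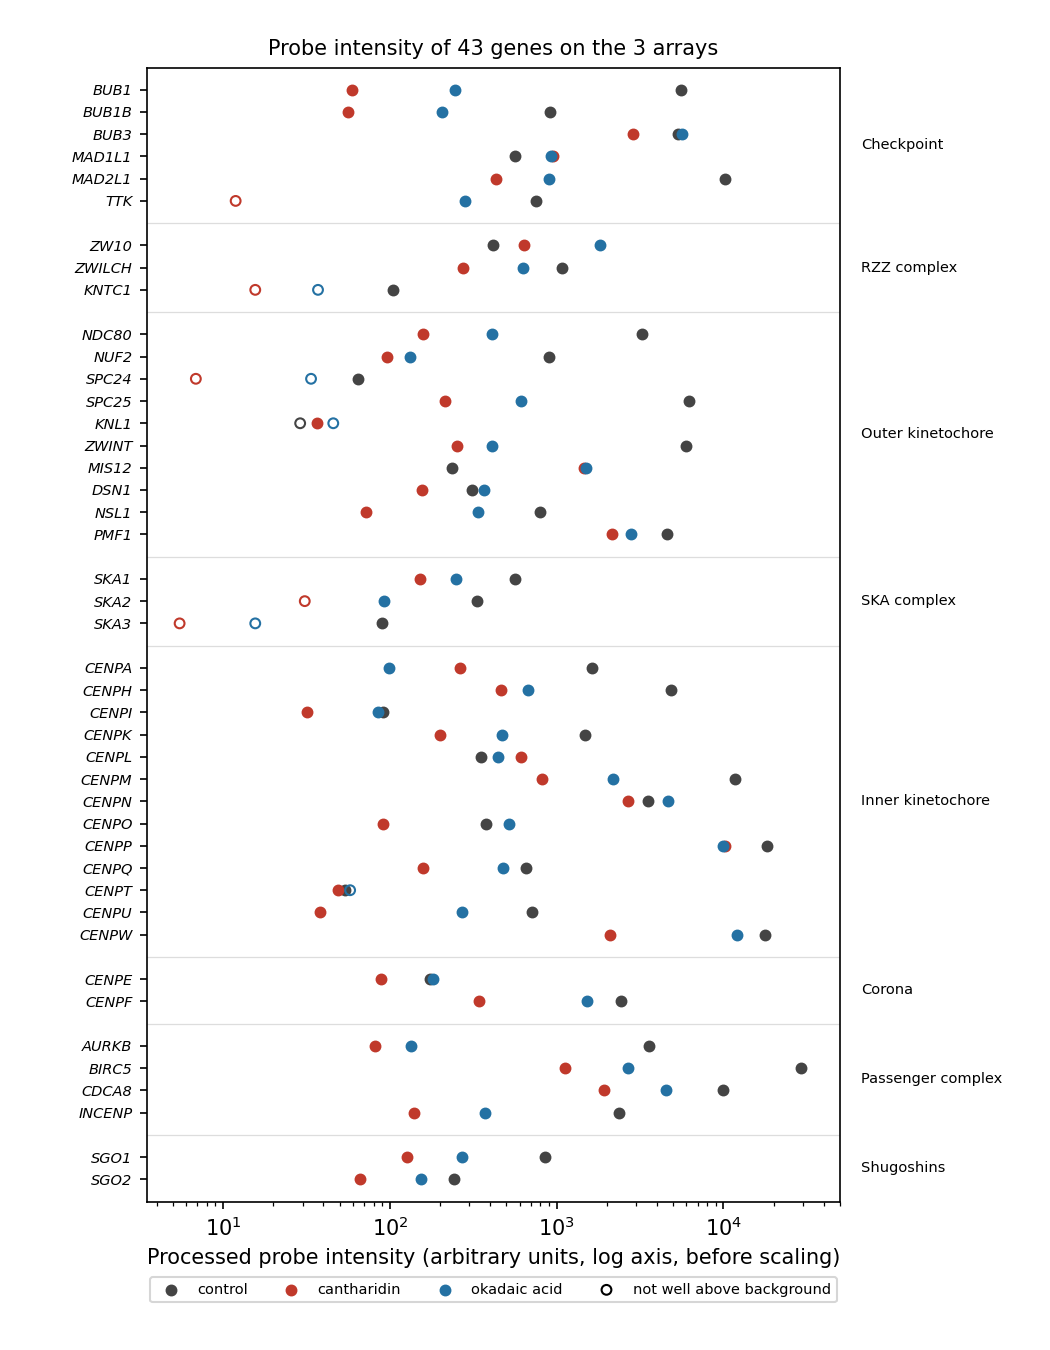
Processed intensity (arbitrary units, log axis, before scaling) of each of the 43 genes, by its brightest probe, on the control, CAN and OA arrays, grouped by role. Open circles were not well above background, and for most genes the control array is the brightest of the 3 and the CAN array the dimmest.

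Among the 6 checkpoint genes, 5 were lower under CAN and 4 under OA, with medians of -4.15 and -2.04 (log2). BUB1, the kinase that marks centromeric histone H2A and brings other checkpoint proteins to the kinetochore, read 5553 in control, 59.5 under CAN and 247 under OA. Its signal was 84.9-fold lower with CAN, the largest fall among genes well above background on both arrays, and 26.9-fold lower with OA. With normexp the log2 difference under CAN was -5.07 in place of -6.41. BUB1B (BubR1), a part of the complex that inhibits the anaphase-promoting complex, read 914, 56.3 and 206 in the same order, which was 14.7-fold and 5.30-fold lower. For both genes the control array was bright and the OA array lay between the others. MAD2L1, the protein whose closed form captures CDC20, read 10189, 435 and 906, 21.3-fold lower with CAN and 13.4-fold lower with OA. TTK (MPS1), the kinase at the head of the checkpoint, read 749 in control and 281 under OA, 3.18-fold lower, but only 11.9 under CAN, not well above background, and so at least 31.1-fold lower at this background setting. With normexp its log2 difference under CAN was -3.03, smaller than that bound, but the offset added there, 50, is above its signal of 11.9.

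The remaining checkpoint genes, BUB3 and MAD1L1, stood apart from these. BUB3, the adaptor that carries BUB1 and BUB1B, read 5331, 2867 and 5626, which was 1.69-fold lower with CAN and 1.13-fold lower with OA. A second BUB3 probe read 3256, 890 and 3115, 3.33-fold and 1.25-fold lower, so its probes shared a direction under CAN but not a size. MAD1L1, which anchors MAD2L1 at unattached kinetochores, read 562, 951 and 930 and was 1.86-fold higher with CAN and 1.39-fold higher with OA. Thus MAD1L1 was dimmest in control, the reverse of its partner MAD2L1, and its log2 difference stayed between 0.76 and 0.97 under CAN in every processing tried.

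The RZZ complex, which recruits dynein and MAD1L1 to the outermost kinetochore, split in the same way. ZW10, a subunit that also serves membrane traffic in interphase, read 416, 638 and 1816, 1.69-fold higher with CAN and 3.66-fold higher with OA. ZWILCH read 1076, 276 and 632, 3.54-fold and 2.03-fold lower. KNTC1 (ROD), the large subunit of the complex, read 105 in control and 15.6 and 37.1 on the treated arrays, neither well above background, so it was at least 4.37-fold lower with CAN and at least 2.17-fold lower with OA. ZW10 was thus brightest on the OA array while the other subunits were brightest in control, and in every processing tried its log2 difference stayed between 0.62 and 0.82 under CAN and between 1.67 and 2.13 under OA.

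The outer kinetochore held 10 of the genes, of which 8 were lower under CAN (median -3.08) and 7 of 9 compared were lower under OA (median -1.48). With dim signals at their bound the medians were -2.25 under CAN and -1.49 under OA, and 6 of the 9 were lower under OA. NDC80 (HEC1), which binds microtubules directly, read 3265, 159 and 411, 18.6-fold and 9.48-fold lower. NUF2, its coiled-coil partner, read 902, 96.7 and 132, 8.48-fold and 8.19-fold lower. SPC25, which links the complex to the inner layer, read 6218, 213 and 611, 26.5-fold and 12.2-fold lower. In all 3 of these NDC80 complex subunits the control array stood far above both treated arrays, which lay close together for NUF2. SPC24, the partner of SPC25, was dim throughout, at 64.0 in control and at 6.87 and 33.7, not well above background, on the treated arrays. Its fall was at least 2.66-fold with CAN and at least 1.32-fold with OA, the latter bound short of the 1.5-fold line.

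KNL1, the scaffold on which BUB1 and BUB1B dock, could not be followed. Its brighter probe read 29.0, 36.7 and 45.8 and was well above background under CAN alone, at least 1.15-fold higher than control. Its other probe read 15.8, 6.32 and 18.8, not well above background on any array. ZWINT, the KNL1-bound protein that holds the RZZ complex, read 5940, 254 and 411, 21.2-fold and 17.2-fold lower. A second ZWINT probe read 1452, 57.6 and 35.7, 22.9-fold lower with CAN and at least 29.9-fold lower with OA. Both ZWINT probes put the control array far above the treated ones, and by the second the OA array was not well above background.

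The 4 subunits of the MIS12 complex, which bridges the inner and outer layers, did not move together. MIS12 read 237 in control, 1459 under CAN and 1499 under OA, 6.76-fold and 5.29-fold higher, the largest rise of the 43 genes under either agent. NSL1 read 797, 72.3 and 340 and was 10.0-fold lower with CAN and 2.80-fold lower with OA. PMF1 read 4600, 2151 and 2804, 1.94-fold and 1.96-fold lower. DSN1 read 309, 156 and 368, 1.79-fold lower with CAN and at its control level with OA (1.0-fold). The complex therefore held a gene dimmest in control, a pair brightest in control, and DSN1, which was low under CAN alone. In every processing tried, the log2 difference of MIS12 stayed between 2.44 and 2.92 under CAN and between 2.08 and 2.66 under OA.

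The SKA complex, which helps kinetochores follow shrinking microtubules, was lower in all 3 subunits under both agents. SKA1 read 560, 151 and 249, 3.37-fold and 2.69-fold lower. SKA2 read 335 in control, 30.9 under CAN, not well above background, and 92.4 under OA, at least 9.85-fold and 4.32-fold lower. Its second probe read 272, 17.8 and 124 and was at least 11.3-fold and 2.62-fold lower. SKA3 was near the detection limit, with 89.6 in control and 5.49 and 15.6, not well above background, on the treated arrays, at least 3.72-fold and 1.84-fold lower. The control array was the brightest for each of the 3 genes, and the treated arrays have no order for SKA3.

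**Figure D3:**
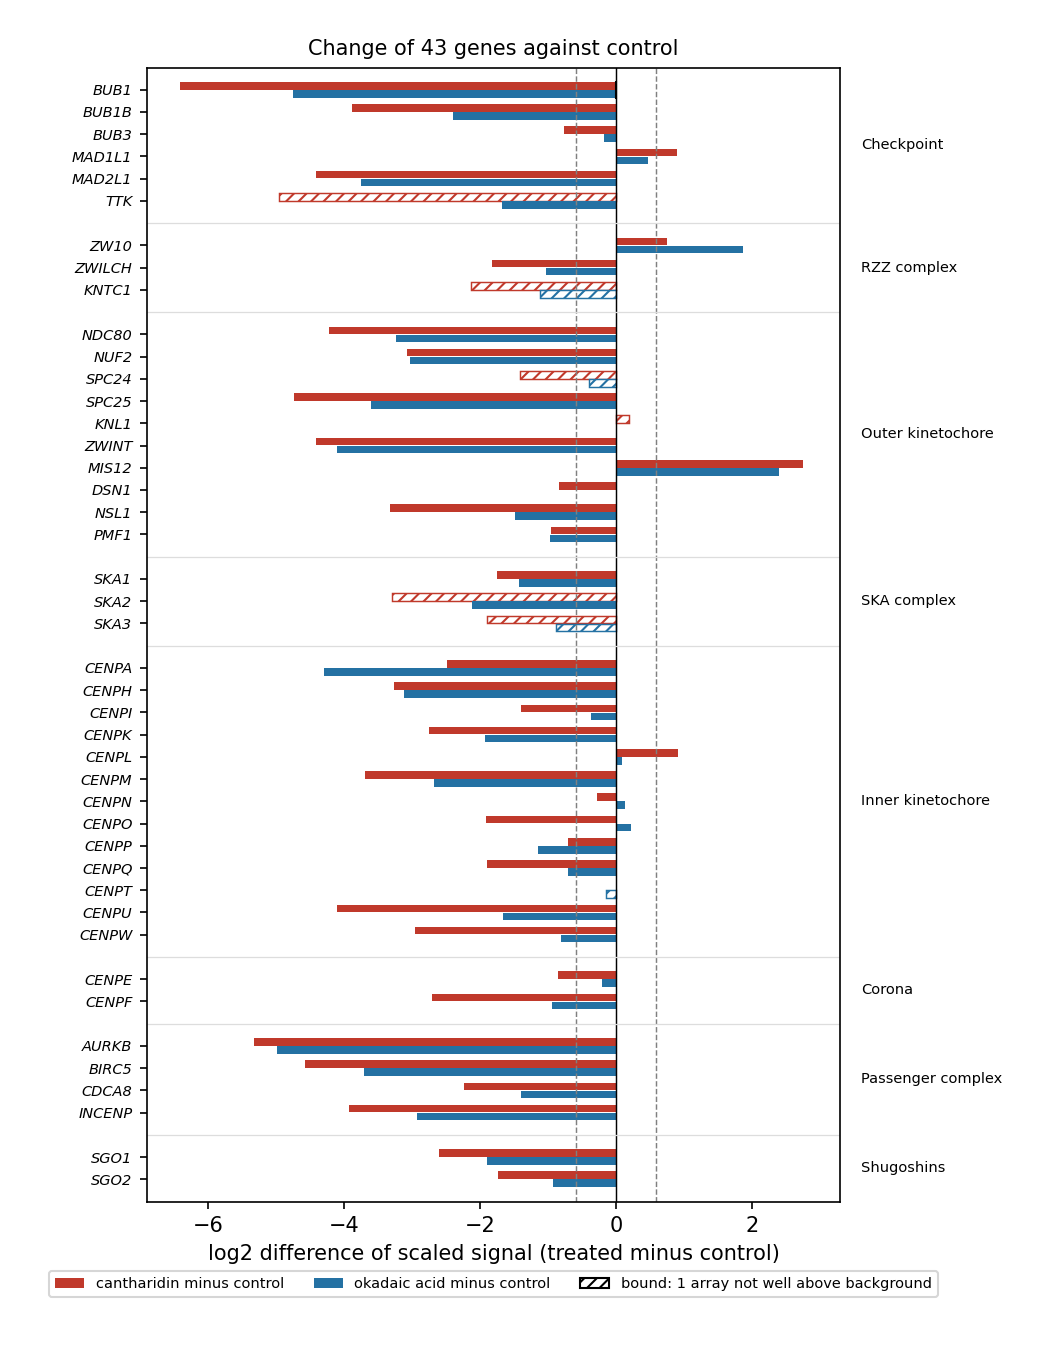
Log2 difference of scaled signal against control for each of the 43 genes, CAN in red and OA in blue, grouped by role, with dashed lines at 1.5-fold and hatched bars for bounds. Most bars point left, and among measured values BUB1 and AURKB furthest, while MIS12, ZW10, MAD1L1 and CENPL point right under CAN.

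The inner kinetochore held 13 of the genes, with 10 lower under CAN (median -1.91) and 8 under OA (median -0.80). CENPA, the histone H3 variant that marks the centromere, read 1638, 265 and 99.3 and was 5.61-fold lower with CAN and 19.7-fold lower with OA. Of the 40 genes compared between the treated arrays, it was the only 1 more than 2-fold dimmer under OA than under CAN. The remaining 12 belong to the constitutive centromere-associated network, which is made of smaller complexes and is taken here in that order.

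In the CENPH, CENPI, CENPK and CENPM group, which connects CENPA chromatin to the outer layer, all 4 genes were lower with CAN. CENPH read 4865, 463 and 675, 9.56-fold and 8.61-fold lower, with an SE over its 10 spots of 0.03 and 0.02 on the log2 scale. CENPM read 11662, 820 and 2189, 12.9-fold and 6.36-fold lower, and its second probe was 12.5-fold and 6.11-fold lower. CENPK read 1483, 200 and 469, 6.74-fold and 3.77-fold lower. Each of these was brightest in control and dimmest under CAN. CENPI was dim, at 91.5, 31.7 and 85.2, which was 2.62-fold lower with CAN and 1.28-fold lower with OA, and the call under CAN was lost with normexp (-0.43). A second CENPI probe read 47.6 in control and 12.8 and 13.4, not well above background, on the treated arrays. It was at least 1.97-fold lower with CAN, and no fold can be given for OA.

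CENPL and CENPN form a pair that reads the CENPA nucleosome, and neither was lower past 1.5-fold. CENPL read 353, 609 and 448, 1.90-fold higher with CAN and 1.06-fold higher with OA. It was brightest under CAN, with a log2 difference between 0.68 and 1.02 in every processing tried. CENPN read 3533, 2671 and 4636, 1.20-fold lower with CAN and 1.1-fold higher with OA. A second bright CENPN probe read 2838, 2140 and 3952, 1.20-fold lower and 1.17-fold higher, so that both bright probes kept CENPN near its control level. Another probe, at 56.1 in control and not well above background on the treated arrays, was at least 2.13-fold and 1.15-fold lower.

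The CENPO, CENPP, CENPQ and CENPU group, which has a part in recruiting the kinase PLK1, was lower with CAN in all 4 genes and with OA in all but CENPO. CENPU read 716, 38.1 and 271, 17.1-fold and 3.16-fold lower. CENPQ read 652, 159 and 476, 3.73-fold and 1.63-fold lower, with an SE over spots of 0.03 and 0.05, and its call under OA was lost without scaling (-0.45). CENPO read 375, 90.6 and 520, 3.76-fold lower with CAN and 1.16-fold higher with OA, so that its OA array was at the level of control. Its second probe read 373, 78.3 and 396, 4.32-fold and 1.12-fold lower. CENPP read 18241, 10194 and 9911 by its brightest probe, 1.63-fold and 2.20-fold lower, and 941, 65.7 and 263 by another, 13.0-fold and 4.27-fold lower. The CENPP probes had the same direction and differed widely in size.

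CENPT and CENPW, histone-fold partners that carry NDC80 to the centromere, stood apart from each other. CENPW read 17657, 2077 and 12126, 7.72-fold lower with CAN and 1.74-fold lower with OA, the latter call lost without scaling (-0.54). CENPT was near background, at 53.9, 49.2 and 57.8, the last not well above background, at its control level with CAN (1.0-fold) and at least 1.11-fold lower with OA. CENPW was therefore far lower under CAN than in control or under OA, and CENPT showed no array apart from the others.

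The corona genes encode large proteins of the outermost fibrous layer. CENPE, a kinesin that carries chromosomes to the spindle equator, read 175, 88.0 and 182, 1.80-fold lower with CAN and 1.15-fold lower with OA. The SE over the spots used was 0.05 and 0.03. The CENPE call under CAN was lost with normexp (-0.45). CENPF, which accumulates in G2 and holds dynein regulators at the kinetochore, read 2447, 342 and 1522, 6.50-fold and 1.92-fold lower. A dimmer CENPF probe was at least 3.11-fold and 1.54-fold lower. Both corona genes were dimmest under CAN.

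All 4 genes of the chromosomal passenger complex, which corrects faulty attachments at the inner centromere, were lower under both agents, with medians of -4.26 and -3.31. AURKB, its kinase, read 3567, 81.0 and 134, 40.0-fold lower with CAN and 31.8-fold lower with OA, the largest fall under OA by brightest probes. BIRC5 (survivin), the subunit that reads a mitotic histone mark, read 29369, 1118 and 2689, 23.9-fold and 13.0-fold lower, with an SE over spots of 0.03 and 0.02. INCENP, the scaffold that activates AURKB, read 2361, 140 and 371, 15.3-fold and 7.59-fold lower, with an SE of 0.04 and 0.02. The control array was many times brighter than either treated array for these 3 genes. CDCA8 (borealin) read 9988, 1929 and 4548, 4.71-fold and 2.62-fold lower, the smallest fall of the complex under both agents.

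The shugoshins protect centromeric cohesin until anaphase. SGO1 read 847, 127 and 272 by its brighter probe, 6.06-fold and 3.72-fold lower. Its dimmer probe read 55.2, 33.5 and 77.3, 1.5-fold lower with CAN and 1.17-fold higher with OA, so the direction of SGO1 under OA depended on the probe. SGO2 read 243, 66.1 and 154, 3.34-fold and 1.89-fold lower, brightest in control and dimmest under CAN.

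Set directly against each other, the treated arrays separated most of the genes, with OA the brighter. Of 40 genes compared, 25 were at least 1.5-fold higher under OA than under CAN (62.5%), against 29.5% of the 16200 genes compared, and 2 were lower (CENPA and CENPL, 5.00%), against 22.3%. The median difference, OA minus CAN, was 0.83 (log2), a 1.78-fold difference, while all genes had a median of 0.13. With no scaling of the arrays the median of all genes was 0.52 and that of the 40 genes 1.22. No interval can be given for these differences, since each rests on 1 array per agent.

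At this background setting TTK was at least 9.78-fold higher under OA. CENPU was 5.41-fold, CENPW 4.44-fold and CENPO 4.37-fold higher under OA. All of these were near or below their own control level under OA and far below it under CAN. NSL1, at 3.58-fold, CENPF, at 3.39-fold, BUB1, at 3.16-fold, and BUB1B, at 2.78-fold, followed. The treated arrays differed by less than 1.5-fold for AURKB (1.26-fold higher under OA), ZWINT (1.23-fold higher), CENPH (1.11-fold higher), NUF2 (1.04-fold higher), MIS12 (1.28-fold lower) and PMF1 (1.01-fold lower). CENPA went the other way, 3.51-fold lower under OA than under CAN, and CENPL was 1.79-fold lower.

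**Figure D4:**
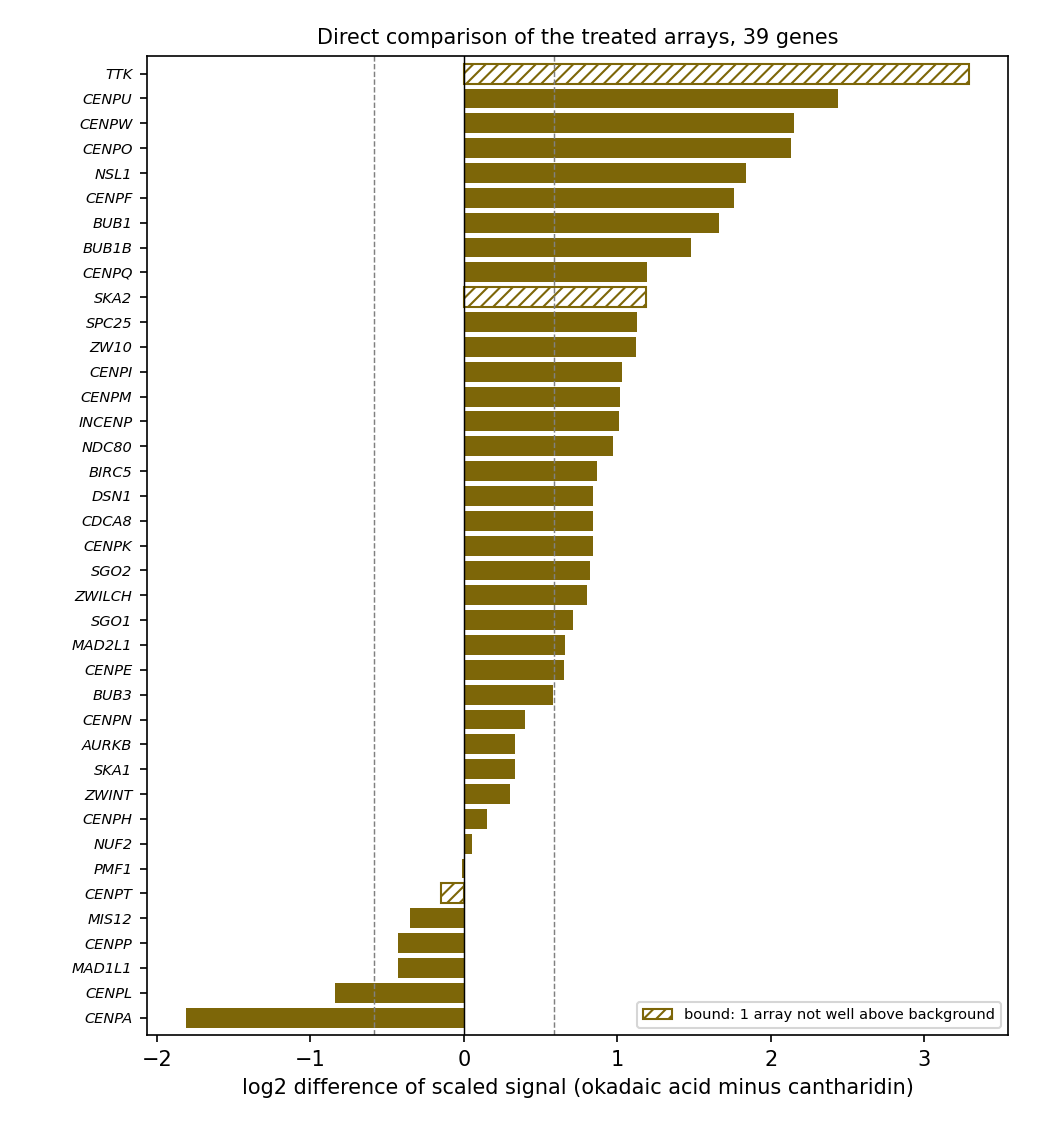
Log2 difference of scaled signal between the treated arrays, OA minus CAN, for the 39 genes for which a fold could be given, sorted, with dashed lines at 1.5-fold and hatched bars for bounds. Most genes lie to the right, led by TTK, CENPU, CENPW and CENPO, and CENPA lies furthest to the left.

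Promoter windows were available in RefSeq for 35 of the 43 genes and were searched over 250 bases before and 50 after the start site, using the start listed first for the 5 genes with several. A CHR (TTTGAA or TTCGAA, both strands) occurred in 18 of them (51.4%), against 16.6% of all 27305 gene promoters in the table and 13.5% of those of the 15302 array genes. A CCAAT box (CCAAT, both strands) occurred in 22 (62.9%), against 35.7% and 36.3%. Both occurred together in 12 (34.3%), against 6.58% and 5.55%. An E2F site (TTTCCCGC, TTTGGCGC, TTTCGCGC or TTTGCCGC, both strands) occurred in 3 (8.57%), those of CENPA, CENPU and MIS12, against 3.33% and 4.41%. No motif was found in 7 (20.0%), against 52.5% and 53.5%. Matches of different motifs overlapped in 1 of the 35 promoters. These are matches of letters only, and binding was not measured.

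The 18 genes with a CHR had a median of -3.02 (log2) under CAN and -2.59 under OA, and the 17 without had -1.74 and -0.97. Held at their bound, dim signals gave medians of -2.82 and -2.15 with a CHR and -1.41 and -0.92 without. With dim signals at their bound, 13 of the 18 with a CHR were at least 4-fold lower under CAN, and 5 of the 17 without. Under OA the counts were 9 of 18 and 2 of 17. Of all genes compared, with or without a CHR, 8.57% were at least 4-fold lower under CAN and 6.69% under OA. The 8 genes without a promoter entry are in neither group. Over all genes with a CHR the medians were -0.21 and -0.00, near those of genes without it. The motif did not separate the extremes printed above. AURKB fell 40.0-fold under CAN with no CHR in the window used, which may not be its main promoter. CENPN stayed within 1.20-fold with a CHR at +4, and ZW10, one of the genes that was higher, also has one.

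Genes that work beside this set gave a more mixed picture. Of 20 further genes of the centromere, of CENPA loading and of the checkpoint, 13 were lower and 2 higher under CAN (median -1.05), and 10 were lower and 6 higher under OA (median -0.67). The shares lower were 65.0% and 50%, against 34.1% and 28.8% of all genes, and the shares higher 10.0% and 30.0%, against 27.5% and 28.1%, so the share higher under OA was near that of all genes. HJURP, the chaperone that deposits CENPA, read 26395, 1742 and 11683, 13.8-fold lower with CAN and 2.70-fold lower with OA. OIP5 (MIS18B), which prepares the centromere for that deposition, was 12.6-fold and 3.67-fold lower. ITGB3BP (CENPR), a further subunit of the centromere-associated network, was 9.24-fold and 6.47-fold lower. These 3 genes were brightest in control, whereas MIS18A, the partner of OIP5, read 4478, 3614 and 25361, 1.13-fold lower with CAN and 4.75-fold higher with OA. MAD2L1BP (p31comet), which helps to silence the checkpoint, read 1055, 7260 and 3937, 7.58-fold and 3.13-fold higher. NDEL1, a dynein regulator, was 3.47-fold and 2.45-fold higher.

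The target of the checkpoint, the anaphase-promoting complex (APC/C), with its regulators and the anaphase pair separase and securin, gave 18 genes. Under CAN 8 were lower and 4 higher (median -0.42), and under OA 8 were lower and 3 higher (median -0.51). The share lower was 44.4% under either agent, against 34.1% and 28.8% of all genes, and the shares higher were 22.2% and 16.7%, against 27.5% and 28.1%, so these counts lay nearer to those of all genes than the counts of the 43 did. FBXO5 (EMI1), which keeps the complex inactive before mitosis, read 4043, 321 and 900, 11.4-fold and 5.37-fold lower. PTTG1 (securin), the inhibitor of separase, read 58890, 12677 and 38679, 4.22-fold and 1.82-fold lower. ANAPC16, a subunit, was 7.52-fold and 6.13-fold lower. Other subunits stood above control, among them CDC16, 3.73-fold and 2.10-fold higher. ANAPC1, the largest subunit, was 2.57-fold and 2.36-fold higher by its brightest probe, but 1.02-fold and 1.25-fold lower by the next. Among the 14 subunits alone the median was -0.09 under CAN and -0.51 under OA, against -0.16 and 0.01 for all genes.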

How the data were processed

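Total RNA of PANC-1 cells was hybridised to 3 Agilent 1-colour arrays, 1 per group, grouped by the sample titles. The authors deposited each array's scanner output as intensity values, background-subtracted and spatially detrended by Feature Extraction 11.0.1.1 with hg19 annotation and no scaling between arrays. A second deposited file holds log2 values normalized by the authors, by a method not given in the sources used here. All arrays came from 1 scan, and position on the slide and group cannot be told apart. The log2 table was used as an alternative, since each of its columns correlated best with its own array (r at least 0.998 over 30845 shared probes).

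Spots without an outlier flag were averaged per probe on the log2 scale and each array's 75th percentile was subtracted. Accessions without version were matched to RefSeq symbols (GRCh38.p14), and a gene was read by its brightest probe. Genes with a signal well above background on either array of a pair entered that comparison, and 1.5-fold was the call. Dim signals entered counts and medians as measured, unless a bound is stated. The 43 genes, the lists and the motifs were chosen with earlier results of these data known. All 43 genes are described. From each other list at most 5 genes past 1.5-fold were named, by the size of the change or for being higher, and MIS18A was added after its values were seen. A further gene of these lists is counted in its list and not reported here. Promoters followed the depth of the smaller fall and the smallest change. Analysis used Python 3.11.15, pandas 2.3.3 and limma 3.58.1 (normexp only), was tested on simulated data, and used no test between arrays.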

Additional observations from a re-analysis of the deposited data

How the results depend on the processing

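The limits are those of 3 arrays: no replicate, 1 probe spot for most genes, and each group at its own position on the slide. Other settings were 14 in number. Of the called genes, 37 of 40 under CAN and 29 of 33 under OA kept their 1.5-fold call and its direction in every setting that compared them. The 2-fold and 4-fold settings changed only the threshold and are given as counts below. CENPI, CENPE and SGO1 lost it under CAN in some setting, and SPC24, CENPQ, CENPW and SGO1 under OA. SGO1 under OA turned to 0.23 (log2) with its dimmest detected probe. Across settings the median of all genes ran from -0.30 to -0.09 under CAN, from -0.11 to 0.26 under OA, and from -0.02 to 0.52 for OA minus CAN. No paired analysis was possible because each group is 1 array. The causes of the following shifts were not tested, and the offset of 50 in normexp shrinks the folds of dim signals by design.

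The median of the 43 genes under CAN became -1.67 with normexp background, -2.76 without scaling, -2.23 with dim signals at the floor and -2.75 with the dimmest detected probe. Under OA it became -1.14 with normexp, -1.58 with median scaling, -1.20 without scaling, -1.67 in the deposited table, -1.26 at the floor and -1.57 with the dimmest probe. For OA minus CAN it became 0.53 with normexp, 0.68 with median scaling and 1.22 without scaling, where 1 gene rather than 2 was lower.

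For the other kinetochore genes under CAN the median became -1.19 without scaling, -0.91 when well above background on all arrays, -1.22 with the median over probes and -1.37 with the dimmest probe. Under OA it became -0.79 with median scaling, -0.41 without scaling, -0.79 on all arrays, -0.39 with the median over probes and -0.38 with the dimmest probe. For the APC/C and anaphase genes it became -0.56 without scaling and -0.58 on all arrays under CAN, and -0.63 with median scaling and -0.25 without scaling under OA.

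At 2-fold, 1 of the 43 genes was higher under CAN, and 4 APC/C and anaphase genes were lower under CAN and 4 under OA. For OA against CAN 15 genes were higher and 1 lower. The shares of all genes at 2-fold were not counted, so these counts have no yardstick. At 4-fold, 1 gene was higher under CAN and 1 under OA, and 15 were lower under OA (35.7%). Among the other kinetochore genes 6 were lower under CAN (30.0%) and 2 under OA (10.0%). Among the APC/C and anaphase genes 3 were lower under CAN (16.7%) and 2 under OA (11.1%). Of all genes, 8.57% were lower at 4-fold under CAN and 6.69% under OA. For OA against CAN 4 genes were higher and 0 lower at 4-fold. Shares of all genes were not counted for that comparison, nor for rises at 4-fold.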
